A study of Mus musculus with 12 samples.

Results

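The sites described here are those where a KAP1 peak was called in the wild-type mouse embryonic stem cell line A3 and where no peak was called for KAP1 in the line E14 or for ZFP57 in either line. Overlapping peaks of the 4 lists (A3 and E14, KAP1 and ZFP57) were joined into 12833 sites, and 9644 of these had the A3 KAP1 peak alone. They made up 75.2% of all sites and 93.7% of the 10294 sites with an A3 KAP1 peak. The same rule applied to E14 kept 630 of its 1333 KAP1 sites (47.3%). These shares follow from the rule and from lists of unequal length, so nothing is read from them.

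KAP1 (also called TRIM28) is a corepressor without a DNA-binding domain of its own. KRAB zinc finger proteins bind particular sequences and recruit it, and it in turn brings SETDB1, which trimethylates lysine 9 of histone H3, and HP1 proteins. In embryonic stem cells it is known for silencing endogenous retroviruses and for keeping imprinted regions methylated together with ZFP57, and it also binds at the 3′ ends of zinc finger genes.

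Chromatin immunoprecipitation with sequencing was carried out in wild-type A3 cells (strain 129X1/SvJ), in A3 cells lacking Zfp57 and in wild-type E14 cells (strain 129P2/OlaHsd), with an input, a ZFP57, a KAP1 and an H3K9me3 library from each, 12 libraries in all. The 4 wild-type peak lists of KAP1 and ZFP57 were used, and the other 8 libraries, the inputs and those of the Zfp57-/- cells among them, were not analysed here. Both lines were grown without feeder cells with leukemia inhibitory factor, A3 in 10% serum with added non-essential amino acids and E14 in 15% serum without them, so line, strain and medium cannot be told apart. Each group is 1 library of 1 line, so no value below has a replicate error and no difference between the lines was tested. Intervals are 95% exact limits for counting error only, and neighbouring peaks are not independent. The labelled cell type could not be checked against marker genes, because the lists hold positions and no expression.

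The lists give a chromosome, a start and an end on the mm9 build in steps of 150 bp, with no height, read count or p-value. The depth of the libraries is unknown. The A3 KAP1 list held 10295 peaks after joining those that touched, the E14 KAP1 list 1334, the A3 ZFP57 list 1485 and the E14 ZFP57 list 602. No mm9 sequence or gene model was used here, so sites are given by position and not by gene, exon, intron, UTR or sequence.

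The A3-alone sites were mostly narrow and were spread over every chromosome. Together they covered 5.68 Mb, with a median width of 600 bp and a middle 50% of 450 to 600 bp. The narrowest class, 300 bp, held 1351 sites (14.01%, 13.3 to 14.7%), and the classes of 450 and 600 bp held 3021 and 3041 (31.3% and 31.5%). A further 1096 sites were 750 bp wide (11.4%), and 1135 were at least 900 bp wide (11.8%, 11.1 to 12.4%). Only 73 exceeded 1500 bp, and the 10 widest held 0.805% of the covered bases.

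A3 KAP1 peaks that met an E14 KAP1 peak were also 600 bp wide at the median, but fewer were in the narrowest class. Of those 614 peaks, 23 were 300 bp wide (3.75%, 2.39 to 5.57%), and 58 were at least 900 bp wide (9.45%, 7.25 to 12.04%). A wider peak has more room to meet another, so part of such a difference is built into the rule. The share of A3 KAP1 peaks that were A3-alone was 97.8% at 300 bp, 91.8% at 600 bp, 96.1% between 1050 and 1500 bp and 90.1% (81.5 to 95.6%) over 1500 bp, with no steady order of width. Of the 720 E14 KAP1 sites without A3 KAP1, 355 had a peak of 300 bp (49.3%, 45.6 to 53.0%). The E14 peaks at sites with KAP1 in both lines were also narrower than the A3 peaks there. Their median was 450 bp, and 117 of 614 were 300 bp wide (19.1%, 16.0 to 22.4%). Widths of E14 and A3 peaks thus differ by library as well as by class.

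**Figure D1:**
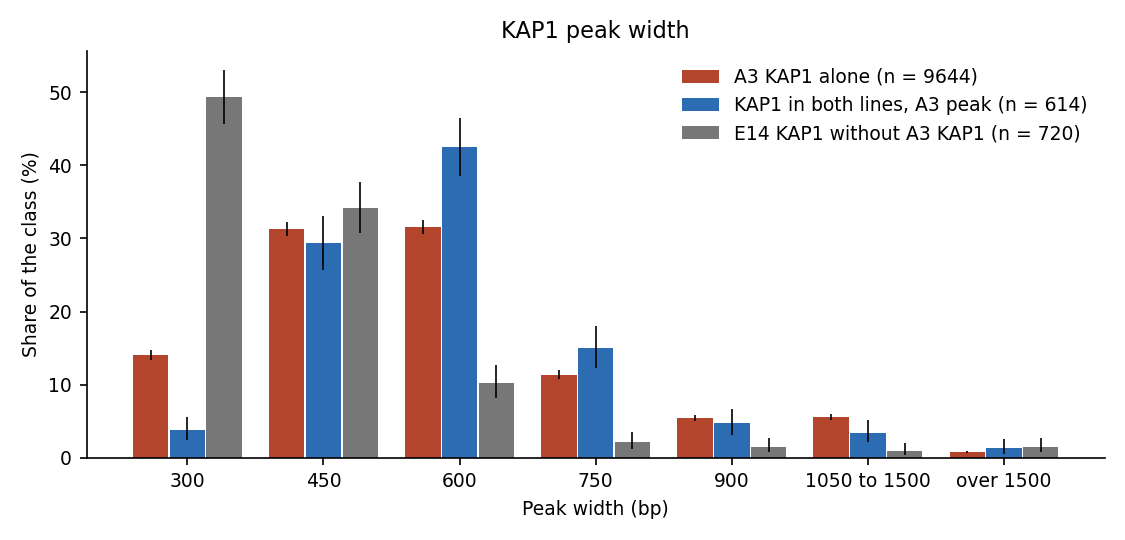
Share of peaks (y axis, percent of the class) by peak width (x axis, bp) for A3-alone KAP1 sites, A3 KAP1 peaks at sites with KAP1 in both lines, and E14 KAP1 peaks without A3 KAP1; bars are shares and lines 95% exact intervals. The 300 bp class holds 14.01% of the A3-alone sites, 3.75% of the A3 peaks present in both lines and 49.3% of the E14 peaks without A3 KAP1. It holds 19.1% of the E14 peaks at sites with KAP1 in both lines, which are not drawn.

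Wide A3-alone sites were concentrated on 3 chromosomes. On chromosome 1, 217 of 815 sites were at least 900 bp wide (26.6%, 23.6 to 29.8%). Chromosome 8 had 148 of 591 (25.04%, 21.6 to 28.7%) and chromosome 14 had 91 of 375 (24.3%, 20.01 to 28.9%). On the other 16 autosomes the share ran from 6.40% on chromosome 15 to 12.02% on chromosome 12, and no interval of these 16 reached those of chromosomes 1, 8 and 14. Chromosome X lay at the other end, with 2 of 147 sites (1.36%, 0.165 to 4.83%), and 35.4% of its sites were in the narrowest class.

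**Figure D2:**
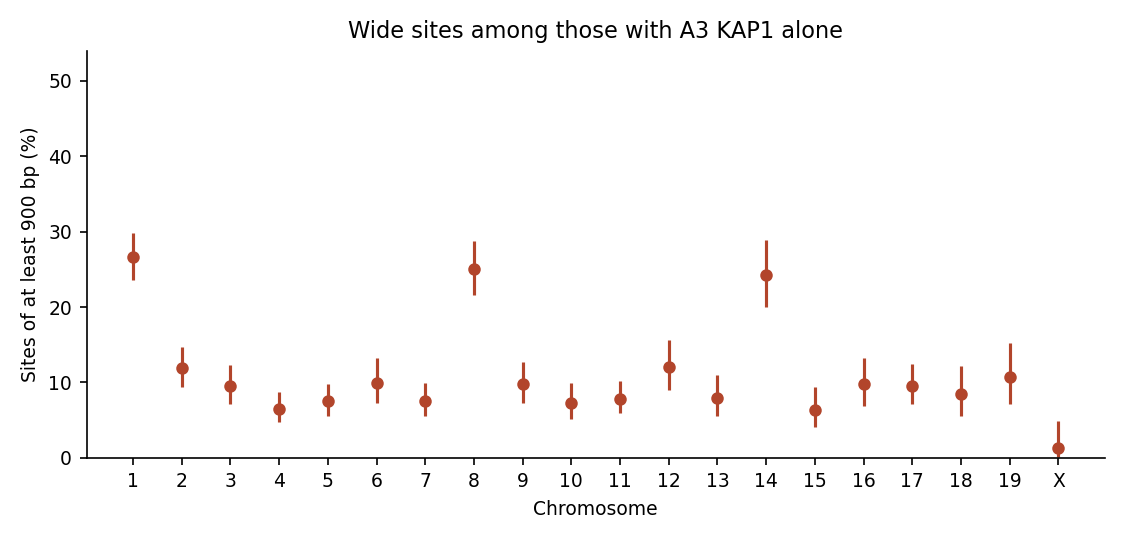
Share of A3-alone KAP1 sites that are at least 900 bp wide (y axis, percent) on each autosome and chromosome X (x axis); points are shares and lines 95% exact intervals, and chromosome Y, with 5 sites, is left out. Chromosomes 1, 8 and 14 lie between 24.3% and 26.6%, and every other autosome at or below 12.02%.

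On chromosome 14 the wide sites lay in the distal part. Before 70 Mb, 24 of 223 sites were at least 900 bp wide (10.8%, 7.02 to 15.6%), close to the share on other autosomes. From 70 Mb on there were 67 of 152 (44.1%, 36.0 to 52.4%), and the median width was 750 bp. In steps of 10 Mb the share was 7.69% between 60 and 70 Mb and 46.9% between 70 and 80 Mb. In the steps after that it was 5 of 21, 11 of 22, 10 of 24, 8 of 17 and, in the last, 3 of 4 sites. The boundary was placed after these values were seen.

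The distal part of chromosome 14 did not hold more A3-alone sites per Mb than the rest of that chromosome. Its density was 2.79 per Mb (2.37 to 3.27) against 3.19 per Mb (2.78 to 3.63) before 70 Mb. Chromosomes 1 and 8 had 4.13 and 4.49 per Mb, and the autosomes other than 1, 2, 8 and 14 had 3.86 per Mb together. The narrowest class was small in each of the regions with wide sites, at 6.63% on chromosome 1, 4.06% on chromosome 8 and 5.92% on distal chromosome 14, against 15.6% on the autosomes other than 1, 2, 8 and 14.

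Taking chromosomes 1 and 8 and distal chromosome 14 as 1 group, 432 of 1558 A3-alone sites were at least 900 bp wide (27.7%, 25.5 to 30.0%), against 701 of 7934 on all remaining autosomal sequence (8.84%, 8.22 to 9.48%). A3 KAP1 peaks that E14 shared did not show that contrast in the share of at least 900 bp. There, 5 of 66 were at least 900 bp wide in the same group (7.58%, 2.51 to 16.8%), against 53 of 520 elsewhere on the autosomes (10.2%, 7.73 to 13.1%). E14 KAP1 peaks without A3 KAP1 gave 7 of 93 (7.53%, 3.08 to 14.9%) and 21 of 581 (3.61%, 2.25 to 5.47%), with intervals that overlapped. By part of the group, A3 peaks that E14 shared were at least 900 bp wide in 1 of 33 on chromosome 1, 2 of 23 on chromosome 8 and 2 of 10 on distal chromosome 14. In the 300 bp class they numbered 0 of 66 in the group (0 to 5.44%), against 22 of 520 elsewhere on the autosomes (4.23%, 2.67 to 6.34%), with intervals that overlapped. The group was chosen after its values were seen, so these are descriptions.

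The contrast in width was present in each of the 4 classes of local density examined. These are the same sites whose widths led to the choice of the group, so this is no separate support. In windows of 1 Mb with 1 to 2 A3-alone sites, 13.04% of the sites in the group were at least 900 bp wide and 4.74% of those on other autosomes. In windows with 10 or more, the shares were 33.5% (29.5 to 37.8%) and 11.6% (10.3 to 12.97%). The A3 ZFP57 list also moved with these regions. It held 1.03 peaks per Mb on chromosome 1, 1.02 on chromosome 8 and 2.48 on distal chromosome 14, against 0.329 on chromosome 14 before 70 Mb and 0.422 on the autosomes other than 1, 2, 8 and 14. On chromosome 2, with 0.886 A3 ZFP57 peaks per Mb, 11.9% of the A3-alone KAP1 sites were at least 900 bp wide. The part of copy number or of a background common to the A3 libraries in these widths was not tested, and no input library was used.

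The 10 widest A3-alone sites, on mm9, included several close to an E14 peak and others far from one. The widest, on chromosome 17 at 6255001-6268950, spanned 13950 bp, and an E14 KAP1 peak and an E14 ZFP57 peak ended 0.9 kb before it. The next was a site of 4950 bp on chromosome 16 at 3121501-3126450, 38.9 kb from the nearest E14 KAP1 peak. On chromosome 4 a site of 4200 bp lay at 146709001-146713200, and on chromosome 13 a site of 3900 bp lay at 12980401-12984300, 12 kb from an E14 KAP1 peak. Chromosome 1 held sites at 85076701-85080300 (3600 bp) and at 88205551-88208700 (3150 bp), the second with another A3-alone site 0.15 kb away. Those at 5840401-5843700 on chromosome 19 (3300 bp) and at 13743301-13746300 on chromosome 17 (3000 bp) were 1128 kb and 808 kb from an E14 KAP1 peak. The last of the 10 were both 2850 bp wide, on chromosome 14 at 106257901-106260750 and at 121327801-121330650, in the distal part described above.

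A set of 3 sites of equal width followed directly after these in rank, and was singled out after its values were seen. All were 2700 bp wide and lay on chromosome 1 at 172993651-172996350, 173001151-173003850 and 173008801-173011500. The gaps between them were 4.8 and 4.95 kb, 1 grid step apart, and the nearest E14 KAP1 peak was over 810 kb away.

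Density ranged from 2.76 to 5.29 sites per Mb among the autosomes, and chromosome X stood below all of them. Over all chromosomes, up to the last peak end on each, there were 3.65 A3-alone sites per Mb (3.58 to 3.73). Chromosome 17 had the most, with 504 sites or 5.29 per Mb (4.84 to 5.78), followed by chromosome 11 with 636 or 5.24 per Mb (4.84 to 5.66). These 2 do not differ beyond counting error. Chromosome 6 had the fewest of the autosomes, with 412 or 2.76 per Mb (2.50 to 3.04).

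Chromosome X held 147 A3-alone sites over 167 Mb, or 0.882 per Mb (0.745 to 1.04), which was 0.241 of the density over all chromosomes. Sites with KAP1 in both lines had 0.646 of their own overall density there, and E14 KAP1 sites without A3 KAP1 had 0.880 of theirs. No A3-alone site lay in 95 of the 167 windows of 1 Mb on chromosome X (56.9%), against 20.2% of windows over all chromosomes. Chromosome Y held 5 A3-alone sites in the 2.87 Mb up to its last peak.

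The densities of A3-alone sites and of KAP1 sites of both lines did not run in parallel over the autosomes. Chromosome 11 had 1.43 times the overall density of A3-alone sites, but 0.603 times that of sites with KAP1 in both lines, where 17 such sites lay. Chromosome 17 was the densest autosome for both, at 1.45 and 1.54 times, and chromosomes 7 (1.12 and 1.47 times) and 4 (1.11 and 1.22 times) were above the overall density for both. Across the 19 autosomes Pearson's r between the densities was 0.06 and Spearman's rho -0.01. For E14 KAP1 sites without A3 KAP1 they were -0.23 and -0.20. The chromosomes share 1 library per list, so these are descriptions of the lists.

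**Figure D3:**
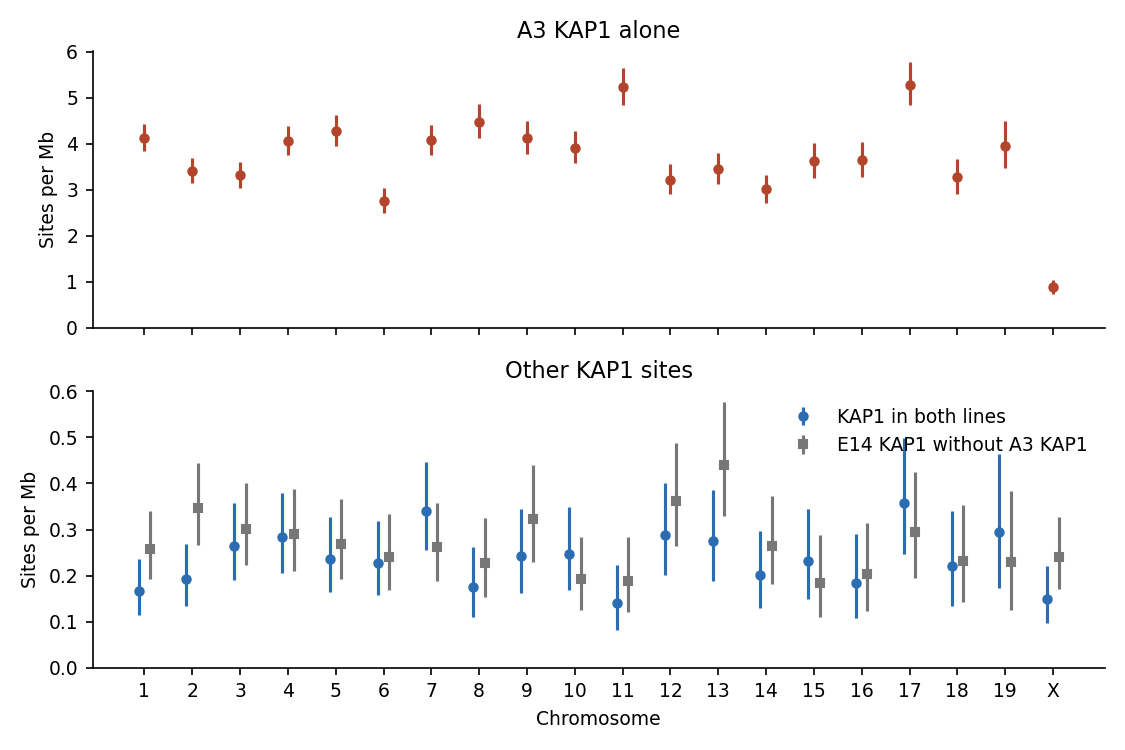
Sites per Mb (y axis) on each autosome and chromosome X (x axis) for A3-alone KAP1 sites (top) and for KAP1 sites of both lines and E14 KAP1 sites without A3 KAP1 (bottom); points are densities, lines 95% exact Poisson intervals, and chromosome Y is left out. In the top panel chromosomes 17 and 11 are highest, at 5.29 and 5.24, and chromosome X lowest, at 0.882.

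Along the autosomes the A3-alone sites were densest in the most distal part, without a steady rise toward it. With each autosome divided into 10 equal parts from the centromere, the last part held 1307 sites, or 5.29 per Mb (5.01 to 5.59), and the part before it 4.65 per Mb (4.38 to 4.93). The second part held 4.15 per Mb (3.90 to 4.41), above the seventh and eighth at 3.88 and 3.89 per Mb. The fifth part held 3.17 per Mb (2.956 to 3.405). The first part, which includes the unassembled start of each chromosome, held 3.09 per Mb (2.88 to 3.32). KAP1 sites of both lines were densest in the first and second parts, with 0.352 and 0.373 per Mb, and the last part held 0.198 per Mb (0.147 to 0.262). E14 KAP1 sites without A3 KAP1 were, like the A3-alone sites, densest in the last part, with 0.352 per Mb (0.282 to 0.435), and had 0.316 per Mb (0.250 to 0.394) in the first, with intervals that overlapped.

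Most A3-alone sites lay within 100 kb of another. So long a list makes gaps short for any placement. Gaps between random positions were not computed, so no baseline is given. The median gap to the nearest other A3-alone site was 44.9 kb (43.1 to 46.5 kb), with a middle 50% of 13.2 to 127 kb. Within 10 kb of another such site lay 1962 of the 9644 (20.3%, 19.5 to 21.2%), and within 100 kb 69.8%. For 389 sites the gap was at most 1 kb (4.03%). A gap of 150 bp, the smallest the grid allows between separate peaks, parted 47 pairs, and 300 bp parted 41. Whether such pairs are separate places of binding or 1 place called in pieces was not tested.

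Linked by gaps of at most 10 kb, the sites formed 887 runs of 2 or more. Of these, 740 were pairs and 120 were triplets, and 147 runs held 3 or more sites, 5.00% of all A3-alone sites. Sites in runs were more often wide, with 17.5% of at least 900 bp (15.8 to 19.2%), against 10.3% (9.64 to 11.01%) of sites with no other within 10 kb. The share in runs was 12.9% (11.1 to 14.8%) for sites of 300 bp, 21.1% for those of 600 bp and 29.6% (25.7 to 33.7%) for those of 900 bp.

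The longest run had 9 sites in 46.2 kb on chromosome 12, from 87811501-87857700. Its sites were 600 to 900 bp wide, with gaps between 450 and 9900 bp. The nearest E14 KAP1 peak was 1063 kb away, and an A3 ZFP57 peak lay 27.8 kb away. The next, also on chromosome 12, had 7 sites in 28.5 kb from 55811251-55839750. These were 300 to 1950 bp wide, with a median of 1350 bp, and the nearest E14 KAP1 peak was 133 kb away. No E14 peak of either protein therefore lay within 1 Mb of the run of 9 or within 100 kb of the run of 7.

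There were 6 runs of 5 sites. Chromosome 1 held those at 72275251-72302700 and at 88383301-88406550, with widths up to 2400 and 1500 bp. The others lay on chromosome 3 at 133181551-133207800, chromosome 5 at 118884601-118909200, chromosome 8 at 87170551-87188400 and chromosome 18 at 21091051-21121050. The naming rule takes 5 runs, and the last 3 tie with those before them in number of sites. The run on chromosome 8 was the one nearest to E14 peaks, with an E14 KAP1 peak and an E14 ZFP57 peak both beginning 11.4 kb beyond it at 87199801. For the run on chromosome 5 the nearest E14 KAP1 peak was 2279 kb away.

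On the scale of 1 Mb the A3-alone sites were uneven. The 2650 windows held a mean of 3.64 sites and a median of 3, and the variance was 3.89 times the mean. No site lay in 535 windows (20.2%), and 474 windows, 17.9% of all, held 50% of the sites. The 222 autosomal windows with 10 or more sites held 2844 of them (29.5%). The longest stretches without an A3-alone site were on chromosome X from 60420001-71253300 (10.8 Mb) and on chromosome 6 from 73098601-82653900 (9.56 Mb). The chromosome 6 stretch still held 3 E14 KAP1 peaks, 3 E14 ZFP57 peaks and 2 A3 KAP1 peaks of sites shared with another list.

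The densest window was on chromosome 7 between 30 and 31 Mb, with 25 A3-alone sites of 300 to 1200 bp. It also held 1 site with KAP1 in both lines and no E14 KAP1 site without A3 KAP1. The window before it, from 29 to 30 Mb, held 22 and no KAP1 or ZFP57 site of E14. Chromosome 8 between 87 and 88 Mb held 24, of which 5 were the run described above, and chromosome 6 between 128 and 129 Mb held 22, beside 2 sites with KAP1 in both lines. The fifth, on chromosome 5 between 136 and 137 Mb, held 20 and no site of any other kind. The median width was 600 to 675 bp in these 5 windows.

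Most A3-alone sites lay over 100 kb from any E14 KAP1 peak. The E14 KAP1 list holds 1334 peaks over a span of 2639 Mb, and so sparse a list makes distances long for any site. Distances from random positions were not computed, so no baseline is given. The median distance to the nearest E14 KAP1 peak was 713 kb (694 to 732 kb), with a middle 50% of 265 to 1545 kb. At most 1 kb away lay 20 sites (0.207%, 0.127 to 0.320%), and a further 162 were between 1 and 10 kb away. Within 100 kb lay 1077 (11.2%, 10.5 to 11.8%), and more than 1 Mb away 3718 (38.6%, 37.6 to 39.5%). Few of the sites were thus near misses of the overlap rule.

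KAP1 sites of both lines were nearer to the next E14 KAP1 peak that they did not overlap. Their median distance was 404 kb (353 to 453 kb), 5.87% lay within 10 kb (4.15 to 8.04%) and 23.5% within 100 kb (20.2 to 27.1%). For the A3-alone sites the share within 10 kb was 1.89% (1.63 to 2.18%). Sites of both lines hold an E14 KAP1 peak by definition, and A3-alone sites were selected for having none. The difference is thus tied to the calls that the rule used, and nothing is read from it. The 37 sites with A3 KAP1 and a ZFP57 peak but no E14 KAP1 had a median of 270 kb (157 to 499 kb). For A3 ZFP57 sites without KAP1 the median was 688 kb (624 to 763 kb), whose interval overlapped that of the A3-alone KAP1 sites.

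The distance followed no steady order of width. The median was 639 kb (589 to 719 kb) for sites of 300 bp, 758 kb (727 to 791 kb) for those of 450 bp and 680 kb (604 to 768 kb) for those of 1050 to 1500 bp. The share within 10 kb ran from 1.72% to 2.15% in the classes up to 1500 bp, with overlapping intervals. The 73 sites over 1500 bp had 3 within 10 kb (4.11%, 0.856 to 11.5%). ZFP57 peaks were farther, with a median of 911 kb (884 to 933 kb) to the nearest A3 ZFP57 peak and 1336 kb (1284 to 1384 kb) to the nearest E14 ZFP57 peak. Within 10 kb of an A3 ZFP57 peak lay 77 A3-alone sites (0.798%). Distances also depend on how many peaks each list holds, which was 1485 for A3 ZFP57, 602 for E14 ZFP57 and 1334 for E14 KAP1. The A3 ZFP57 list was thus longer than the E14 KAP1 list, although the median distance to its peaks was greater. What lies behind that order was not tested.

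At the boundary of the rule, 1 A3-alone site touched an E14 KAP1 peak without overlapping it, on chromosome 3 at 108494551-108494850, where the E14 peak began at 108494851. Just beyond it were sites at 167109001-167109600 on chromosome 2 and at 142350601-142351200 on chromosome 3, each 0.15 kb from an E14 KAP1 peak. Another 2, both on chromosome 1, at 164901601-164901900 and at 180097201-180097650, were 0.3 kb away. On the other side of the boundary, 5 A3 KAP1 peaks met an E14 KAP1 peak by 150 bp, the smallest overlap seen.

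The 5 sites farthest from an E14 KAP1 peak fell in 2 places. On chromosome 1, sites at 129844501-129844950, 129986401-129986850 and 130119751-130120350 were 10268, 10138 and 10005 kb away. On chromosome 11, sites at 94410301-94410900 and 94536601-94537200 were 10228 and 10186 kb away. Each had another A3-alone site within 150 kb, so these stretches lacked E14 KAP1 peaks but not A3 KAP1 peaks.

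A3-alone sites were dense in the immediate surroundings of KAP1 sites of both lines and not in those of E14 KAP1 sites without A3 KAP1. Within 10 kb of the 585 autosomal sites with KAP1 in both lines lay 132 A3-alone sites, or 11.3 per Mb (9.46 to 13.4). Between 10 and 50 kb the density was 5.42 per Mb (4.77 to 6.13), and between 500 kb and 1 Mb 4.64 per Mb (4.47 to 4.82). Around the 674 E14 KAP1 sites without A3 KAP1 it was 4.01 per Mb within 10 kb (3.01 to 5.23) and 3.85 per Mb between 500 kb and 1 Mb (3.70 to 4.00). The density over the autosomes was 3.84 per Mb (3.77 to 3.92). These kinds of site differ by whether the A3 KAP1 list has a peak there, and that list also supplies the A3-alone sites. The difference is thus tied to the calls of 1 list, and nothing about KAP1 common to both lines is read from it.

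Sites with KAP1 in both lines had an A3-alone neighbour within 10 kb about as often as the A3-alone sites themselves. The shares were 19.8% (16.7 to 23.3%) and 20.4% (19.6 to 21.2%), and the density within 10 kb of an A3-alone site was 12.4 per Mb (11.9 to 12.95). That density counts each pair of A3-alone sites from both ends, so its interval is too narrow. For E14 KAP1 sites without A3 KAP1 the share was 7.57% (5.69 to 9.83%). In the first kb beyond the edge of the sites with KAP1 in both lines there were 16 A3-alone sites, and 20 in the second kb, or 13.7 and 17.1 per Mb. The density was 9.74 per Mb between 5 and 10 kb, and 11.02 per Mb from 1 to 10 kb. Of the 131 A3-alone sites within 10 kb of a site with KAP1 in both lines, 13.7% were at least 900 bp wide (8.35 to 20.8%) and 19.1% were 300 bp wide (12.7 to 26.9%). Over all A3-alone sites these shares were 11.8% and 14.01%, each within the interval given.

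A3 ZFP57 sites without KAP1 had fewer A3-alone KAP1 sites around them. Within 10 kb of those 1357 autosomal sites the density was 2.62 per Mb (2.05 to 3.30), and between 500 kb and 1 Mb 3.22 per Mb (3.13 to 3.32), below the density over the autosomes. Around E14 ZFP57 sites that had no other peak it was 4.67 per Mb within 10 kb (3.31 to 6.42).

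**Figure D4:**
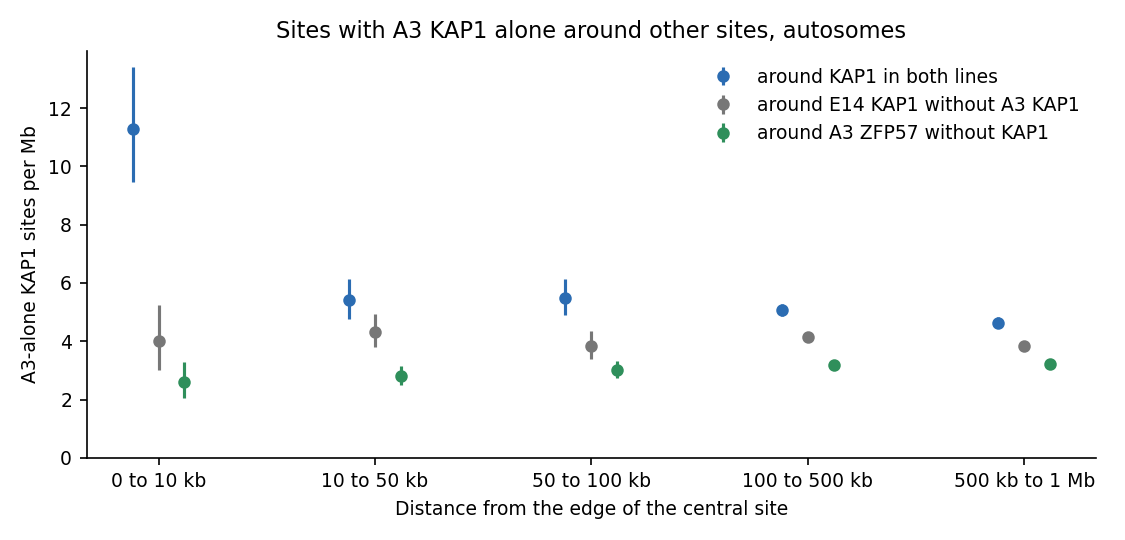
A3-alone KAP1 sites per Mb (y axis) by distance from the edge of other sites on the autosomes (x axis), for KAP1 sites of both lines, E14 KAP1 sites without A3 KAP1 and A3 ZFP57 sites without KAP1; points are densities and lines 95% exact Poisson intervals. Within 10 kb the densities are 11.3, 4.01 and 2.62 per Mb. The kinds of central site differ by the calls that the rule used, so nothing is read from the order of these densities. Surroundings of different sites overlap and can count an A3-alone site more than once, so the intervals are too narrow.

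Other sites were also counted in windows of 1 Mb on the autosomes, from the first peak of each chromosome on. Windows without an A3-alone site held 0.147 sites with KAP1 in both lines (0.111 to 0.191), and windows with 10 or more held 0.414 (0.334 to 0.508). E14 KAP1 sites without A3 KAP1 numbered 0.239 per window (0.192 to 0.293) and 0.279 per window (0.214 to 0.358), with intervals that overlapped. A3 ZFP57 sites without KAP1 numbered 0.575 per window (0.501 to 0.656) where there was no A3-alone KAP1 site, 0.711 (0.651 to 0.776) where there were 1 to 2 and 0.293 (0.226 to 0.373) where there were 10 or more. Without chromosomes 1, 2, 8 and 14, which hold many of those ZFP57 sites, the values were 0.371 (0.304 to 0.448), 0.468 (0.411 to 0.531) and 0.244 (0.175 to 0.331), and the intervals of the first and the last overlapped. Over the 2422 windows Pearson's r with the number of A3-alone sites was 0.14 for KAP1 in both lines, 0.01 for E14 KAP1 without A3 KAP1 and -0.13 for A3 ZFP57 without KAP1. These are weak relations of sparse counts. Sites with KAP1 in both lines and A3-alone sites both come from the A3 KAP1 list, and the other kinds lack a peak of that list by definition. The differences between the kinds are thus tied to the calls of 1 list, and nothing is read from them. The share of each window in which reads can be placed was not measured and may differ between windows.

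**Figure D5:**
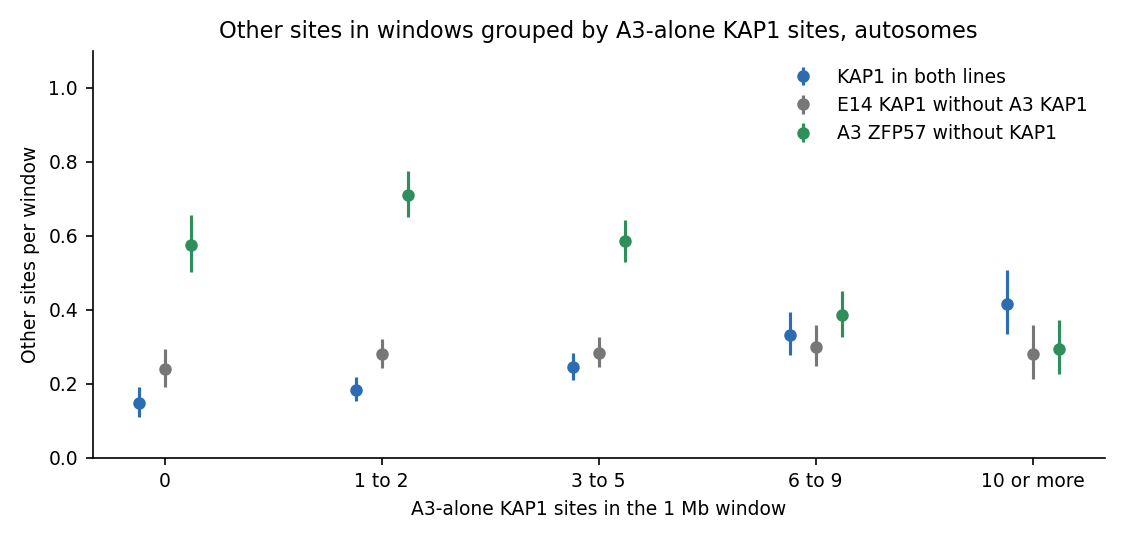
Other sites per 1 Mb window (y axis) in autosomal windows grouped by their number of A3-alone KAP1 sites (x axis); points are means per window and lines 95% exact Poisson intervals. KAP1 sites of both lines go from 0.147 to 0.414 per window, A3 ZFP57 sites without KAP1 from 0.575 through 0.711 at 1 to 2 sites to 0.293, and E14 KAP1 sites without A3 KAP1 stay between 0.239 and 0.300. The kinds differ by whether the A3 KAP1 list has a peak there, and that list also supplies the A3-alone sites.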

How the data were processed

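The deposited files list the peaks of 1 library each as positions, with no score or count, and all other values were computed here. Per the submitters' processing notes, CASAVA 1.8.2, Bowtie 0.12.7, SAMtools 0.1.18, bedtools 2.14.3-1 and the mm9 build were used, with no role given. The peak caller, its threshold and any use of the input were not given in the sources used here. Per the labels' protocols, chromatin was fixed in 1% formaldehyde and sheared to 100 to 400 bp. Every start lay 1 above a multiple of 150, so 1 was subtracted from it. Touching peaks of a list were joined, which removed 53 A3 KAP1 peaks, and peaks overlapping by at least 1 bp formed a site.

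Distances run between edges. Density uses the span up to the last peak end of any list. Shares have Clopper-Pearson and rates exact Poisson intervals, and intervals of medians come from binomial order statistics. Surroundings of different sites overlap and can count an A3-alone site more than once, so the intervals of those densities are too narrow. The rule named the 10 widest sites, the 5 longest runs, the 5 densest windows and the 5 nearest and 5 farthest sites. Members, lists and alternatives were chosen with earlier results of these data known, and no significance test was run. In lists simulated for this rule, 200 of 10295 peaks were made to overlap and 10095 sites were found alone, as by bedtools 2.31.1. Scripts ran in Python 3.11.15 with scipy 1.17.1, pandas 2.3.3, numpy 2.4.6 and matplotlib 3.10.9.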

Additional observations from a re-analysis of the deposited data

How the results depend on the processing

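The number of A3-alone sites stayed between 8401 (peaks above 300 bp alone) and 9697 (touching peaks kept apart), from 9644, and was 9643 where touching peaks of other lists counted. Density was 3.74 per Mb from the first peak on and 3.84 on the autosomes. The share of sites with another within 10 kb (20.3%) was 12.7% at 5 kb and 53.0% at 50 kb. The variance to mean ratio of 3.89 was 2.78 in windows of 0.5 Mb, 9.26 in windows of 5 Mb and 3.80 in windows from the first peak on. Against E14 KAP1 peaks above 300 bp, the median distance was 1059 kb and the share within 10 kb 1.57%; that share was 1.047% at 5 kb and 6.47% at 50 kb. On chromosomes 1 and 8 and distal chromosome 14, against other autosomes, wide sites made up 44.6% and 19.3% at a width limit 1 grid step lower, 17.3% and 4.30% at 1 step higher, and 25.5% and 7.57% among sites with no other within 10 kb. Leaving out chromosome 1, 8 or 14 gave 28.9%, 29.4% and 25.96%. Different limits count different sites by construction. The alternatives for width by chromosome, for surroundings and for windows from the first peak on, and those with touching peaks of other lists, without the 5 densest windows, and with wider E14 peaks or members of at least 600 bp within 10 kb, were added after seeing the data. No paired analysis was possible because each group has 1 library and no result comes from a test. Unknown depth limits any reading of the length of a list.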
